A study of Mus musculus with 2 samples.

Results

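MHC class II positive fibroblasts (class II+ FB) of intestinal grafts were examined by single-cell RNA-seq of sorted mesenchymal stromal cells (MSC). The donor tissue was large intestine (LI) or small intestine (SI) of EYFP (C57BL/6) embryos, bred from EYFP males and C57BL/6Nrj females. It grew for 4 weeks at the kidney of an adult wild type host, below the capsule. The sort kept live YFP+ Itgb1+ cells without CD45, Ter119, BP3, CD31, EpCAM or L1CAM, a gate meant to leave out host cells, which lack the transgene, and blood, endothelial, epithelial and glial cells. There was 1 library of 10x Genomics droplets per graft type, the LI library from pooled grafts, and both groups share donor strain, host, age of graft and sort. Class II+ FB were chosen by their own transcripts: a cell needed at least 1 unique molecular identifier (UMI) of Dcn and of Col1a2, no UMI of the immune genes Ptprc, Tyrobp, Laptm5 and Fcer1g, and at least 10 UMIs summed over Cd74, H2-Aa, H2-Ab1 and H2-Eb1 (the class II sum). This held for 948 of 21199 barcodes, 491 in the LI and 457 in the SI graft. They were 5.81% (exact Clopper-Pearson 95% interval 5.32 to 6.33) of 8445 LI graft FB and 7.15% (6.53 to 7.81) of 6395 SI graft FB that met the same rule at any class II sum. They were compared with FB of the same library whose class II sum was 0 (class II zero FB), drawn 1 for 1 from the same bin of total UMIs (bins of 0.25 in log2), which gave 490 pairs in the LI and 455 in the SI graft.

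MHC class II molecules carry peptides from endosomes to the cell surface, where CD4 T cells read them. The alpha and beta chains (H2-Aa, H2-Ab1, H2-Eb1) assemble with the invariant chain Cd74, and H2-DM exchanges the invariant chain fragment for peptide. Dendritic cells, macrophages and B cells make class II constitutively, whereas fibroblasts and other stromal cells make it when interferon-gamma acts on them through the class II transactivator Ciita. The same cytokine raises MHC class I, the immunoproteasome, guanylate binding proteins and immunity related GTPases, and the chemokines Cxcl9 and Cxcl10 that attract activated T cells.

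The class II genes lie side by side on mouse chromosome 17 (GRCm38, the mm10 build of the counts): H2-Ab1 at chr17:34257689-34269419, H2-Aa at chr17:34282744-34287823 on the minus strand and H2-Eb1 at chr17:34305867-34316674. H2-DMa (chr17:34119541-34139101) and H2-DMb1 (chr17:34153072-34160230) stand upstream, and the class I genes Psmb9, Tap1, Psmb8 and Tap2 occupy the stretch between them and H2-Ab1, from 34181987 to 34216321. Class II promoters are known for an X box and a Y box read by the RFX and NF-Y factors that recruit Ciita, and interferon-inducible promoters for a gamma-activated site and an interferon-stimulated response element. The last 130 bases before the RefSeq start of 3 of these genes and of the GTPase gene Igtp are shown 5′ to 3′ on the gene's strand, because these genes carry the results given here. Capitals mark exact matches, on either strand, to the X box core AACNGATG, the X2 box core TGACGTCA and the Y box core TGATTGG in the class II genes, and to the gamma-activated site TTCNNNGAA and to an interferon-stimulated response element in Igtp.
H2-Aa: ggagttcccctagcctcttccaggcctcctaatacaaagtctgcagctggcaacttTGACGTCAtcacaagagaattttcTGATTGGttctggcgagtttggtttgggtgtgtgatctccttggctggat
H2-Eb1: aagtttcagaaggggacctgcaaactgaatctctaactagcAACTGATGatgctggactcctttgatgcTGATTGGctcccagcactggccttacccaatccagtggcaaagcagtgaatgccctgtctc
H2-DMb1: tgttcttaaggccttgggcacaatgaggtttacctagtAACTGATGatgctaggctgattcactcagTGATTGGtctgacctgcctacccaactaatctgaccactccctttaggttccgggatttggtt
Igtp: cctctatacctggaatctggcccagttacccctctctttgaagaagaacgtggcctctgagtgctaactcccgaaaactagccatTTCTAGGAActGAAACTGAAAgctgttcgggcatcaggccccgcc
These stretches lie at chr17:34287824-34287953 (minus strand), chr17:34305737-34305866, chr17:34153061-34153190 and chr11:58199426-58199555. The RefSeq start of H2-DMb1 lies downstream of the GENCODE start used for the gene position above (34153072). Most of its stretch, with both marked boxes, therefore falls inside the gene as placed there. H2-Eb1 and H2-DMb1 held AACTGATG, starting 89 and 92 bases before the start, each followed by TGATTGG at 61 and 63 bases. H2-Aa held TGATTGG at 50 bases and TGACGTCA at 74 bases, and the letters AACNGATG were not in this window. Igtp held TTCTAGGAA at 45 bases and GAAACTGAAA at 34 bases. Of 32851 RefSeq promoters of this build, counted over the 250 bases before the start, 1.98% held the X box core letters, 1.55% the X2 box core, 7.23% the Y box core, 7.02% the gamma-activated site and 2.98% the response element. Promoters were at hand for 49 of the 82 genes that were higher in class II+ FB, too few to compare motif counts over that set.

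The libraries had 11568 (LI) and 9631 (SI) barcodes, with 63348069 and 54918006 UMIs and 500 to 48375 UMIs per barcode. The labels name a 3′ and a 5′ kit without saying which served which library. They shared 26 barcode sequences, none of them a class II+ FB. With 1 library per graft type and cells that are not replicates, no test between groups was possible and no p-value is given, and intervals on levels and ratios cover counting error only.

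The class II values that chose the cells are a description. The median class II sum was 29 UMIs in LI and 33 in SI class II+ FB, the quartiles 17 to 58 and 17 to 66, and the highest 288 and 303, and 45 and 57 cells had at least 100. The transcripts made up a median of 0.328% and 0.394% of a cell's UMIs. Cd74 gave 45.9% and 49.8% of class II UMIs, H2-Ab1 23.2% and 19.8%, H2-Aa 15.4% and 15.04%, and H2-Eb1 15.5% and 15.3%, so that the chains stood in nearly the same proportion in both grafts. All 4 genes were detected in 430 (87.6%) and 403 (88.2%) cells, and 1 cell in each library reached the threshold on Cd74 alone. Each gene was detected in 93.7% to 98.8% of class II+ FB. In smooth muscle cells the share was 4.31% to 10.3% (116 LI and 307 SI cells). These were here cells without a Dcn UMI and with at least 5 UMIs of Myh11 and Actg2. They held a median of 5317.5 and 5452 UMIs, against 10311 and 9383 in class II+ FB. RNA from other cells or expression by the muscle cells could give such shares, and which of these applies was not tested. The threshold fell on a slope and not in a gap. There were 98 LI and 76 SI FB with a class II sum of 7 to 9, and 54 and 46 with 10 to 12. Just outside and just inside, Cxcl9 stood at 704 and 627 CPM (UMIs scaled to a total of 1000000 outside the 4 class II genes) in the LI and 1369 and 2028 CPM in the SI graft.

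**Figure D1:**
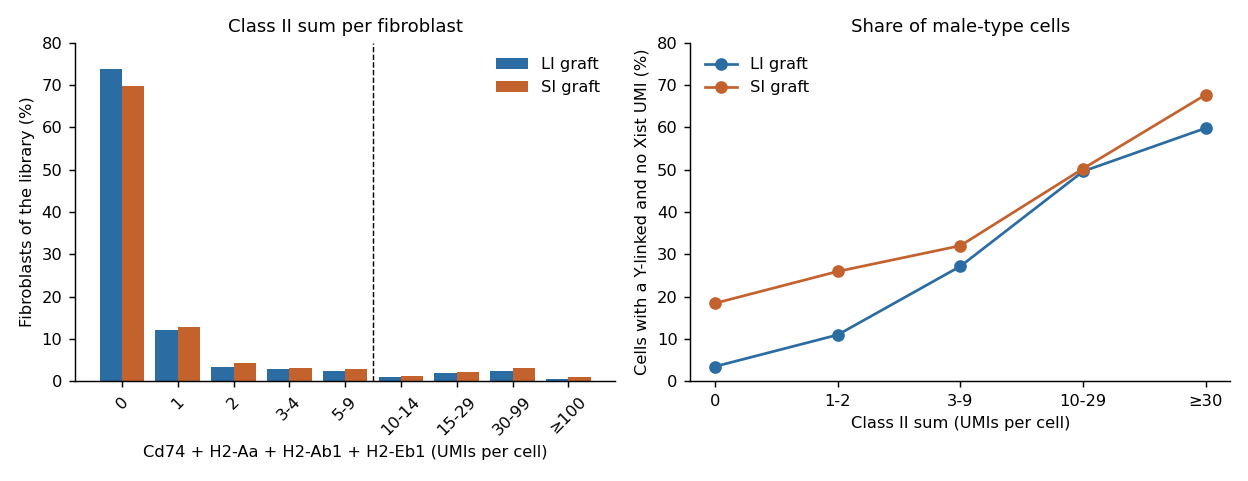
Left, share of fibroblasts (%) by summed UMIs of the 4 class II genes, with the dashed line at the threshold of 10; right, share of cells (%) with a Y-linked and no Xist UMI in 5 ranges of the class II sum, in cells with at least 2000 UMIs. A class II sum of 0 was found in 73.7% of LI and 69.9% of SI fibroblasts, and the male-type share went from 3.46% and 18.4% at a sum of 0 to 59.8% and 67.7% at 30 or more.

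Class II+ FB came from male cells far more often than class II zero FB did. A cell was called male when it held a UMI of Ddx3y, Eif2s3y, Kdm5d or Uty and none of Xist, the transcript that silences the second X chromosome, and female in the reverse case. Male cells made up 54.3% (49.8 to 58.8) of LI class II+ FB against 5.92% (4.00 to 8.39) of their depth-matched class II zero FB, and 59.8% (55.1 to 64.3) against 28.6% (24.5 to 33.0) in the SI graft. With 2 UMIs needed for a call, the shares were 31.6% against 3.47% and 34.5% against 18.9%, and 275 of 490 and 245 of 455 class II+ FB were then without a call. Read the other way, 266 of 729 male LI graft FB were class II+ (36.5%, 33.0 to 40.1) against 66 of 6899 female FB (0.957%, 0.741 to 1.22), and 273 of 1461 male SI graft FB (18.7%, 16.7 to 20.8) against 62 of 3678 female FB (1.69%, 1.29 to 2.16). These shares are not matched on depth, and male FB were deeper (median 8498 against 5163 UMIs in the LI and 7653 against 5385 in the SI graft), and the part of depth in these shares was not tested. Of FB without a call of sex, 19.5% and 9.71% were class II+. The median class II sum of class II+ FB was 32 and 41 UMIs in male cells and 17 and 17.5 in female cells. Both a Y-linked and an Xist UMI were found in 10.8% and 6.15% of class II+ FB and in 3.88% and 4.62% of class II zero FB. Male and female cells were found in each library, and a sex in a pooled library also marks a set of grafts, so sex, embryo and graft cannot be told apart. Values within a sex are given further on for 7 gene lists and for single genes.

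Other cell types were looked for by their markers. Of 9 dendritic cell markers, Flt3, Itgax, Cd209a, Clec9a and Siglech had no UMI in class II+ FB of either library. Zbtb46 stood at 4.49 and 4.91 CPM, against 4.32 and 4.26 CPM in class II zero FB, Batf3 at 14.954 and 16.3 CPM against 7.88 and 16.2 CPM, and Xcr1 and Ccr7 below 1 CPM. T and NK cell markers without Ccl5, 10 genes, summed to 10.7 against 6.94 CPM in LI and 17.9 against 10.5 CPM in SI cells, with a UMI in 8.78% against 6.12% and 11.4% against 7.03% of cells. At least 5 UMIs of these were found in 0 LI and 4 SI class II+ FB against 0 and 1 class II zero FB, and with Ccl5 the list summed to 59.8 against 10.5 CPM and 102 against 24.5 CPM. The macrophage genes Adgre1 and Cd68 had 3 and 33 UMIs in LI and 1 and 20 UMIs in SI class II+ FB, near the 1 and 29, and 1 and 15, of class II zero FB. Over the whole macrophage list without Ctss, 10 genes, levels were 48.0 against 31.3 CPM in the LI graft and 73.2 against 23.8 CPM in the SI graft, with a UMI in 28.0% against 24.9% and 35.8% against 18.9% of cells. C1qa, a complement component of macrophages, was at 7.85 against 3.003 CPM and 12.1 against 2.24 CPM. At least 5 UMIs of macrophage markers were found in 8 LI and 14 SI class II+ FB against 1 and 0 class II zero FB, and the part of these cells in the results was not tested on its own. Dendritic cell markers, of which 5 of 9 in LI and 6 of 9 in SI class II+ FB had no UMI, summed to 20.001 against 12.2 CPM and 21.6 against 21.1 CPM, and B cell markers to 0.748 against 1.501 CPM and 11.2 against 5.83 CPM. Mesothelial markers summed to 179 against 60.4 CPM in LI and 94.9 against 31.0 CPM in SI cells, with a UMI in 42.0% against 26.5% and 14.9% against 10.3% of cells, and 2 of the 3 tested were called higher (medians 1.26 and 1.35). At least 5 UMIs of them were found in 28 LI and 11 SI class II+ FB and in 6 and 4 class II zero FB, and of epithelial markers in 15 and 10 against 1 and 2. At least 10 UMIs of pericyte markers were found in 22 LI and 97 SI class II+ FB against 33 and 121 class II zero FB, and 1 cell in each library held at least 5 UMIs of kidney tubule genes. With every cell of these kinds left out (83 and 159 class II+ FB), 77 genes were higher in both libraries, 65 of them among the 82 found with all cells, and 23 of the 41 lower genes were again lower. Single droplets holding more than 1 cell were not removed: Scrublet scores in the top 9.26% and 7.70% of barcodes were found in 14.9% and 13.6% of class II+ FB and in 18.0% and 12.3% of class II zero FB.

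Against class II zero FB, class II+ FB held more MHC class I, interferon-inducible GTPase and Cxcl9 transcripts. Of 6714 genes with at least 20 CPM in any of the 4 pools, 82 (1.22%) were at least 2-fold higher in both libraries and 41 (0.611%) at least 2-fold lower, on the scale of log2(CPM + 1). Within a library, 161 and 257 genes were higher and lower in the LI and 187 and 108 in the SI graft, and the median log2 ratio of all genes was 0.01 and -0.08. At these background shares a count of 0 or 1 in a list of 24 genes or fewer is no result about that list. Of the 82 genes, 48 stood in the gene lists described next, which were chosen with earlier results of these data known.

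**Figure D2:**
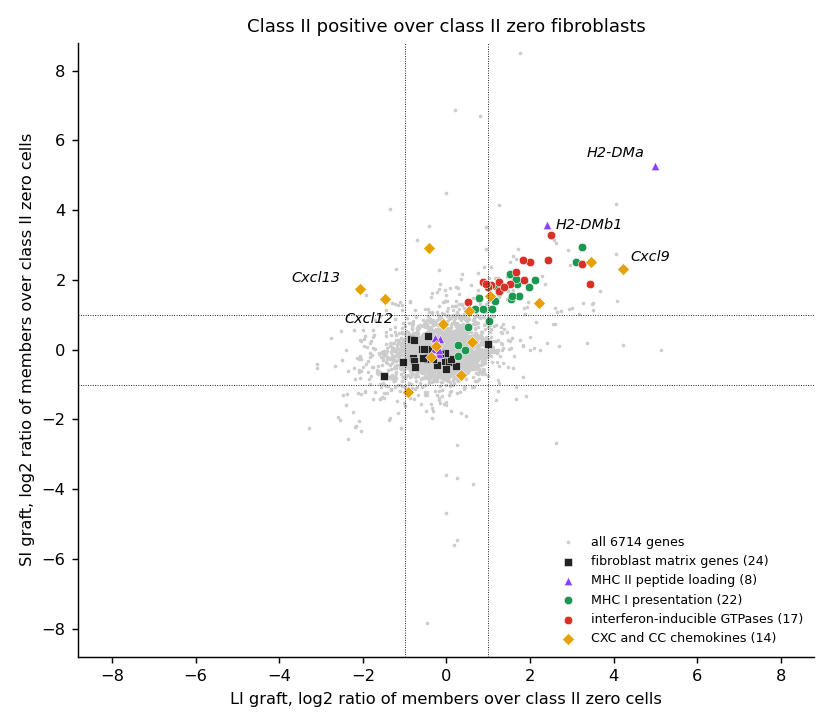
Log2 ratio of pooled CPM in class II+ over class II zero fibroblasts in the LI (horizontal) and SI (vertical) graft, 1 point per gene, with dotted lines at 2-fold and coloured points for 5 gene lists. Class I genes and GTPases lie in the upper right, matrix genes around the origin, and Cxcl12 and Cxcl13 in the upper left.

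Of the genes for peptide loading onto class II, those of H2-DM were higher and the others were not called. H2-DMa, the alpha chain of H2-DM, stood at 96.3 CPM in LI class II+ FB against 2.06 CPM in class II zero FB (log2 ratio 4.99, 95% interval 4.36 to 5.59) and at 245 against 5.38 CPM in the SI graft (5.27, 4.76 to 5.80). H2-DMb1, a beta chain, stood at 74.96 against 13.3 CPM (2.41, 2.06 to 2.77) and 118 against 8.97 CPM (3.58, 3.15 to 4.02). H2-DMb1 has a near-identical neighbour in H2-DMb2 (1.31 and 3.35 CPM), so reads could be split between them. These were the 2 genes called of 8 measured. The other 6, among them the thiol reductase Ifi30 (log2 ratio -0.17 and -0.14), the cathepsins Ctsl (-0.30 and 0.02) and Ctsb (-0.28 and 0.33) and the protease Lgmn (-0.16 and 0.30), were not called. They were expressed in both kinds of FB, Ctsl at 1191 and 1398 CPM in class II+ FB and at 1469 and 1375 CPM in class II zero FB. The list's median log2 ratio was -0.18 and 0.31.

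The class II transactivator Ciita was scarce and higher in class II+ FB. It had 14 UMIs in LI class II+ FB (2.62 CPM) and none in their partners, at least 4.65-fold higher when 3 UMIs are taken as the limit that a count of 0 allows. In the SI graft it had 64 UMIs (14.3 CPM) against 2 (0.449 CPM), a log2 ratio of 3.40 (2.47 to 3.89). It was below the level filter and is counted in none of the lists. A Ciita UMI was found in 2.85% and 12.3% of class II+ FB, and with each cell thinned to 2000 UMIs in 0.619% and 2.65%, against 0 of 109 and 0 of 290 smooth muscle cells. The constant partners of Ciita did not differ by 2-fold: Rfxap stood at log2 ratios of 0.05 and 0.05, Nfyb at 0.13 and -0.17, Nfyc at -0.03 and -0.75 and Creb1 at 0.39 and -0.05. None of the 4 measured genes of that list was called.

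Class I presentation was higher as a group. Of 22 measured genes 14 were called higher and none lower, with a median log2 ratio of 1.22 (LI) and 1.51 (SI). Within female cells the median was 1.14 and 1.21, and within male cells 0.28 and 1.23. The heavy chain H2-K1 stood at 2972 against 689 CPM in the LI and 4993 against 1238 CPM in the SI graft (2.11 and 2.01), and its light chain B2m at 2400 against 715 CPM and 3667 against 1254 CPM (1.75 and 1.55). The non-classical genes H2-Q6 (3.25 and 2.94) and H2-Q7 (3.098 and 2.52) had the largest ratios of the list, although their near-identical sequences mean that reads could be split between them. The peptide transporter Tap1 (1.69 and 1.88) and the immunoproteasome subunits Psmb8 (1.58 and 1.53) and Psmb9 (1.66 and 2.03) were called, while Tap2 (0.78 and 1.49), Tapbp (0.89 and 1.18) and Psmb10 (0.68 and 1.16) passed 2-fold in the SI graft alone. The general chaperones Calr (0.45 and -0.01), Canx (0.29 and -0.17) and Pdia3 (0.28 and 0.13) did not. Nlrc5, the class I transactivator, was at 4.67 against 0.938 CPM and 19.6 against 3.14 CPM, below the level filter. Cell by cell, summed class I levels had 10th, 50th and 90th percentiles of 8141, 14272 and 22822 CPM in LI class II+ FB and of 2443, 4138 and 8520 CPM in class II zero FB, and 13501, 24460 and 33215 CPM against 3031, 6579 and 14226 CPM in the SI graft. In 98.2% of LI and 98.2% of SI class II+ FB the level lay above the median of class II zero FB, and in 88.6% and 87.7% above their 90th percentile.

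**Figure D3:**
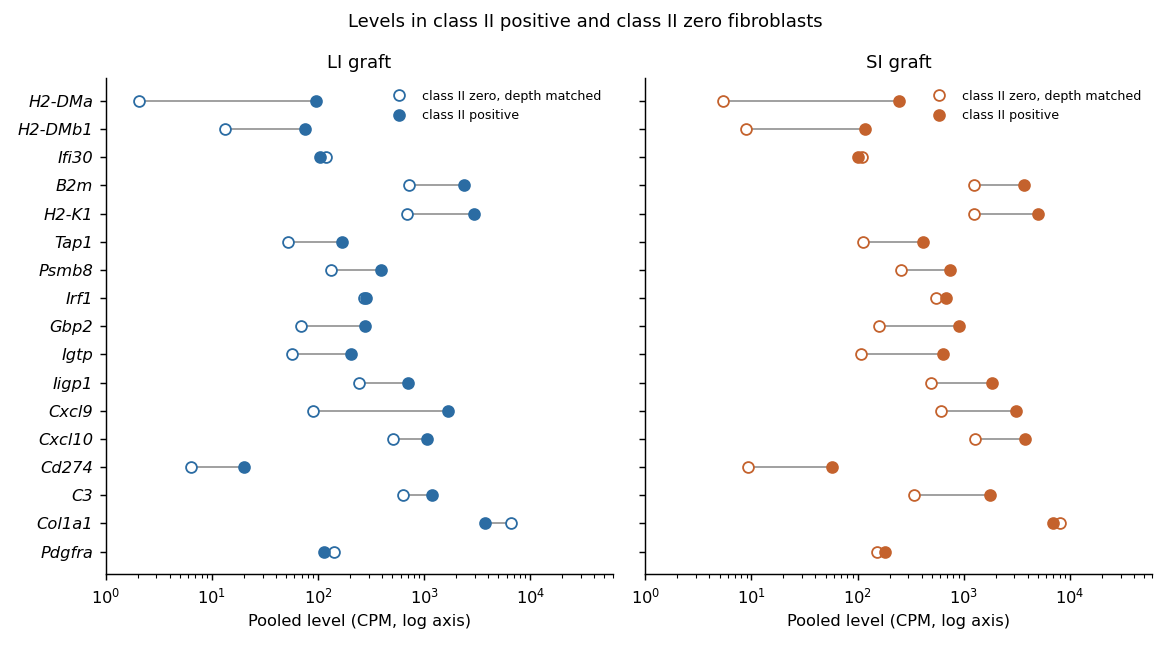
Pooled level (CPM, log axis) of genes in class II+ fibroblasts (filled) and depth-matched class II zero fibroblasts (open), in the LI graft (left) and the SI graft (right). H2-DMa, Cxcl9 and the class I genes are far apart, and Ifi30, Irf1 and Pdgfra nearly coincide.

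The interferon-inducible GTPases, which act against intracellular microbes, were higher as well. Of 17 measured genes 13 were called higher and none lower, with a median log2 ratio of 1.53 and 1.94. Within female cells the median was 1.49 and 1.64, and within male cells 0.50 and 1.47. Gbp2 stood at 277 against 68.5 CPM and 904 against 159 CPM (2.001 and 2.503), Igtp at 207 against 57.1 CPM and 643 against 107 CPM (1.84 and 2.58) and Iigp1 at 711 against 246 CPM and 1827 against 490 CPM (1.53 and 1.90). Gbp4 had log2 ratios of 3.24 and 2.46, from 66.9 against 6.19 CPM and 238 against 42.4 CPM. Gbp5 (0.99 and 1.80), Gbp7 (0.87 and 1.95), Irgm2 (0.95 and 1.90) and F830016B08Rik (0.52 and 1.37) fell short in the LI graft. Several of these genes have close paralogs, so single members are less certain than the group. The spread over cells was wider than for class I. In the LI graft the 10th, 50th and 90th percentiles of the summed level were 143, 1120 and 5754 CPM in class II+ FB and 0, 325 and 1854 CPM in class II zero FB, so that 76.7% of class II+ FB lay above the median of the others and 37.1% above their 90th percentile. In the SI graft they were 1398, 5444 and 12097 CPM against 99.95, 636 and 3467 CPM, with 96.9% and 67.0% above.

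Interferon receptors and the signalling genes given here were not called. The interferon-gamma receptor chains Ifngr1 (0.17 and -0.18) and Ifngr2 (0.15 and -0.14), the type I receptor chains Ifnar1 (-0.10 and 0.14) and Ifnar2 (0.06 and 0.40) and the kinase Jak1 (-0.24 and -0.16) were at similar levels in both kinds of FB. Irf1, an interferon-induced transcription factor, was at 282 against 268 CPM and 678 against 550 CPM (0.07 and 0.30). The feedback inhibitor Socs1 (-0.27 and 0.73) and Irf8 (0.29 and 0.91) did not reach 2-fold, and Socs3 was lower in the LI graft alone (-1.01 and -0.37). The ligand Ifng had no UMI in any pool. The 40 UMIs of Ifnb1 in SI class II+ FB lay in 1 cell.

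Genes that respond mainly to type I interferon were higher in the SI graft and mixed in the LI graft. Of 14 measured, Ifi44 (1.24 and 2.05), Bst2 (1.26 and 1.501) and Ifi27l2a (1.03 and 1.24) were called, and the median log2 ratio was 0.40 and 1.27. Within female cells the median was 0.56 and 0.68, and within male cells -0.013 and 1.202. The viral RNA sensor targets Ifit3 (-0.09 and 1.38), Rsad2 (-0.87 and 1.39) and Usp18 (0.02 and 1.12) passed 2-fold in the SI graft alone. Among 13 interferon-gamma effector genes, the serine protease inhibitors Serpina3f (2.62 and 3.06) and Serpina3g (1.16 and 2.07), the nucleic acid sensor Zbp1 (1.73 and 1.89) and the ubiquitin-like modifier Ubd (3.68 and 1.67) were called. In the LI graft 71.1% of the Ubd UMIs lay in 5 cells, and its log2 ratio was -1.21 within male cells and -0.10 with class II zero FB matched on sex. Serpina3g in the LI graft stood at -0.24 within male cells. The tryptophan-degrading enzyme Ido1 stayed below the filter (2.62 against 0 CPM and 7.59 against 2.02 CPM).

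Of 14 chemokines, 4 were higher in both grafts. Cxcl9 stood at 1687 CPM in LI class II+ FB against 89.7 CPM in class II zero FB (4.22, 4.09 to 4.35), and at 3101 against 616 CPM in the SI graft (2.33, 2.27 to 2.39). It was found in 273 and 325 class II+ FB. With cells thinned to 2000 UMIs it was detected in 42.5% and 61.1% of class II+ FB. The shares were 3.79% and 11.1% in class II zero FB, near the 3.67% and 13.8% of smooth muscle cells. Whether these lower shares come from background RNA was not tested, and 1 SI class II zero FB held 491 of 2748 Cxcl9 UMIs. Cxcl10 stood at 1058 against 510 CPM and 3743 against 1287 CPM (1.05 and 1.54). Cxcl5 (2.21 and 1.33) and Ccl5 (3.46 and 2.52) were low, and 46.4% and 56.7% of the Ccl5 UMIs lay in 5 cells. Of the Cxcl5 UMIs of class II zero FB 84.0% and 62.3% lay in 5 cells, and in female SI cells Cxcl5 stood at -0.39. Ccl5 is also a T and NK cell gene, and its LI log2 ratio was -0.56 without cells that held any immune marker UMI and -0.12 without cells holding markers of other cell types. The neutrophil chemokines Cxcl1 (-0.37 and -0.21) and Cxcl2 (-0.25 and 0.12) and the monocyte chemokine Ccl2 (0.61 and 0.21) did not differ by 2-fold in either graft.

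Of the co-stimulatory ligands, Cd80 and Cd86 were hardly detected. Cd80 had 2 UMIs and Cd86 3 UMIs in LI class II+ FB and none in SI class II+ FB, Cd40 was at 4.30 and 13.2 CPM against 5.25 and 17.3 CPM, and Icosl at 2.24 and 8.48 CPM against 2.44 and 3.81 CPM. Of 6 genes measured, the inhibitory ligand Cd274 (PD-L1) was called higher, at 20.2 against 6.38 CPM (1.52, 1.01 to 2.04) and 57.1 against 9.20 CPM (2.51, 2.07 to 2.97), and Tnfsf9 (4-1BB ligand) lower, at 30.8 against 88.2 CPM and 42.6 against 102 CPM (-1.49 and -1.24). Within female cells, where it had few UMIs, Cd274 stood at 0.77 (-0.79 to 2.37) and 1.03 (-0.28 to 2.43), and within male cells at 0.98 and 1.45. The adhesion molecule Icam1 was similar (-0.03 and 0.17), and Vcam1 was higher in the SI graft alone (-0.34 and 1.62). Of 11 complement genes C2 was called (1.07 and 2.36). C3, the central component, stood at 1181 against 633 CPM (0.90) and 1752 against 338 CPM (2.37), and C4b at log2 ratios of 0.94 and 1.85. No lymphoid stromal gene of 7 was called.

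Matrix genes summed to 36967 against 52025 CPM in the LI and 49590 against 56959 CPM in the SI graft, with median log2 ratios of -0.44 and -0.25, and none of 24 was called. Immediate early and heat shock genes, 11 in all, were lower alongside as a sum (15472 against 22596 CPM and 20026 against 24382 CPM, medians -0.43 and -0.31), and their part was not tested. With cells thinned to 2000 UMIs, the LI matrix sum was 44013 CPM at a class II sum of 0 and 34454 CPM at 30 or more. The SI matrix sum did not fall in this way, at 49029 and 49742 CPM, with 46888 CPM at 10 to 29. Col1a1 stood at 3738 against 6528 CPM (-0.80) and 6914 against 8088 CPM (-0.23), Col3a1 at log2 ratios of -0.79 and -0.32, and Postn at -1.495 and -0.74. Timp1, an inhibitor of matrix metalloproteinases, went the other way in the LI graft (0.99 and 0.16). Of 39 markers of FB subsets 2 were called, although 22 passed 2-fold in at least 1 graft, 17 in the LI and 10 in the SI graft. None of 14 CD81+ FB markers was called, although the BMP antagonist Grem1 (1.08 and 0.96) and the Wnt agonist Rspo3 (1.05 and 0.93) were near 2-fold higher in both grafts. Within female cells this did not hold, with Grem1 at 0.52 and -0.0063 and Rspo3 at 0.098 and -0.36, and within male cells it held in the SI graft (1.31 and 1.19) but not in the LI graft (-0.34 and 0.0078). Of 11 markers of PDGFRAhi FB, the subepithelial subset, the endothelin receptor Ednrb (-1.07 and -1.03) and Col6a5 (-2.46 and -1.31) were lower. In the SI graft 59.8% of the Ednrb UMIs of class II+ FB lay in 5 cells, and in female LI cells Ednrb stood at 1.03. None of 7 Fgfr2+ FB markers and none of 7 CD90+ and Igfbp5+ FB markers was called, and the Fgfr2+ FB gene Adamdec1 was lower in the LI graft alone (361 against 1512 CPM, -2.06, and 993 against 1125 CPM, -0.18). Within a sex its LI log2 ratio was -0.61 in female and -1.64 in male cells. Hox groups 9 to 13, which mark the posterior gut, summed to 275 CPM in LI and 11.2 CPM in SI class II+ FB, beside 220 and 5.16 CPM in class II zero FB.

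Outside the lists, 25 genes were taken by their ratio, the 15 highest and the 10 lowest in the weaker library among 2703 genes with at least 50 CPM in both. On the higher side stood AW112010, an interferon-inducible transcript (241 against 79.4 CPM and 1032 against 159 CPM, 1.59 and 2.69), the surface protein Ly6a (Sca-1, 1.46 and 2.08), Ecscr (1.52 and 1.52), the matrix protein Thbs4 (1.45 and 1.45), the opioid precursor Penk (1.88 and 1.04), the chaperone Clu (1.02 and 2.07), Spp1 (2.74 and 1.12) and Ly6e (0.96 and 1.08), followed by Sod2, Pycard, Ccrl2, Xdh, Igfbp4, Samhd1 and Rnaset2a between 0.76 and 1.54. Of the SI Spp1 UMIs 84.5% lay in 1 cell, and its SI log2 ratio was -0.075 without the 5 cells of highest count. On the lower side stood the Wnt antagonist Sfrp4 (77.6 against 399.9 CPM and 8.48 against 54.5 CPM, -2.35 and -2.55), Emid1 (-2.38 and -1.27), the matrix protease Adamts5 (-1.95 and -1.18), Anxa3 (-1.11 and -1.19), Gnai1 (-0.99 and -1.22) and, between -0.82 and -1.51, Akap12, Creb5, Pdgfrb, Gadd45a and Pde12. Of the Sfrp4 UMIs of SI class II zero FB, 159 of 243 lay in 1 cell. With cells thinned to 2000 UMIs, Anxa3 and Sfrp4 were no longer lower in the LI graft (0.71 and 0.17). Directions also turned within a sex, AW112010 (-0.42), Adamts5 (1.76) and Anxa3 (1.01) in male LI cells and Penk (-0.47) in female SI cells. Of the 82 genes called higher, 19 had at least 50% of their UMIs in 5 cells in at least 1 library, and of the 41 called lower 11 had as much of their class II zero FB UMIs in 5 cells. Igkc, an antibody light chain, was the extreme, with 4520 of 4538 SI UMIs in 1 cell. Of 6 cell cycle genes tested, Mki67 (-1.58 and -1.42) and Top2a (-1.22 and -1.07) were called lower and 4 were not called, Cdk1 standing at 0.28 and -0.66. The UMIs of class II+ FB lay in few cells, 5 cells holding 70.0% (LI) and 53.4% (SI) of Mki67 and 78.0% and 67.5% of Top2a.

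Levels went up in steps with the class II sum in cells thinned to 2000 UMIs outside the 4 genes. From a sum of 0 through 1 to 2, 3 to 9, 10 to 29 and 30 or more, summed class I genes went through 4401, 5612, 9147, 13779 and 16621 CPM in the LI and 8109, 10025, 15218, 21051 and 26633 CPM in the SI graft. The GTPases went from 836 to 2335 CPM in the LI graft, 2.79-fold, and from 1601 to 6927 CPM in the SI graft, 4.33-fold. Cxcl9 went through 69.98, 146, 377, 848 and 2021 CPM in the LI and 258, 436, 1427, 1902 and 3724 CPM in the SI graft. Levels were thus already higher in FB with 3 to 9 class II UMIs, which are in neither group compared above. Irf1 showed no such order, at 330, 305, 269, 217 and 341 CPM in the LI graft and 540, 625, 499, 561 and 776 CPM in the SI graft. Adamdec1 went through 4172, 4038, 2115, 581 and 322 CPM in the LI graft. In the SI graft it stood at 2678, 2820, 2608, 1612 and 837 CPM, with no fall over the lowest sums. The cells of these ranges were thinned but not matched on depth. In the depth-matched pools Adamdec1 stood at 361 against 1512 CPM in the LI graft, but at 993 against 1125 CPM in the SI graft. The share of male cells moved along the same axis (3.46% to 59.8% and 18.4% to 67.7%), and its part in these steps was not tested.

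**Figure D4:**
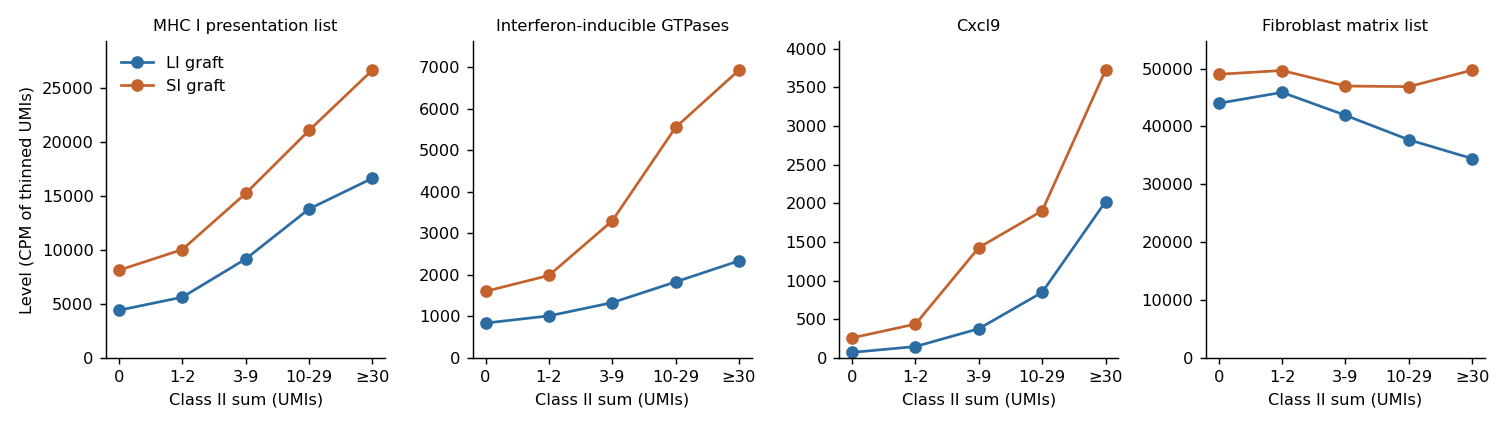
Level (CPM of UMIs thinned to 2000 per cell) of the class I list, the GTPases, Cxcl9 and the matrix list in fibroblasts with class II sums of 0, 1 to 2, 3 to 9, 10 to 29 and 30 or more, in the LI graft (blue) and the SI graft (orange). Class I genes, GTPases and Cxcl9 are higher at each step in both grafts, and the SI graft lies above the LI graft throughout.

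Within a sex, the difference in class I genes and GTPases between class II+ and class II zero FB held in female cells of both grafts and in male cells of the SI graft, and was small in male cells of the LI graft. Summed GTPase levels were 1667 against 674 CPM in female LI cells (66 pairs), 3565 against 1329 CPM in female SI cells (62 pairs) and 6676 against 2268 CPM in male SI cells (255 pairs), but 2159 against 1503 CPM in male LI cells (138 pairs, with 209 male class II zero FB to draw from). The list's median log2 ratio was 1.49, 1.64, 1.47 and 0.50 in that order. For class I genes the values were 11535 against 4794 CPM, 17924 against 6537 CPM, 24539 against 10024 CPM and 16774 against 12110 CPM, with medians of 1.14, 1.21, 1.23 and 0.28. The male class II zero FB of the LI graft thus stood above the female class II+ FB of that graft in class I genes, and near them in GTPases. H2-Q7 had log2 ratios of 3.78, 2.80, 1.92 and 0.55. H2-DMa kept a large ratio in each (3.71, 5.07, 5.49 and 4.54), as did Cxcl9 (4.10, 1.69, 1.997 and 1.76). Cxcl10 did not (1.80, 0.12, 1.28 and 0.35). C3 had 0.11 in female LI cells against 1.96 in male LI cells, and 2.29 and 2.37 in SI cells. The type I interferon list had medians of 0.56, 0.68, 1.202 and -0.013, complement of -0.047, 0.93, 1.02 and 0.73, chemokines of 0.28, -0.14, 1.35 and -0.0062, and class II peptide loading of -0.097, 0.21, 0.42 and -0.31. Matrix sums were lower in each, at 39333 against 53822 CPM, 41874 against 52574 CPM, 52288 against 57947 CPM and 34518 against 39967 CPM. In female cells alone 43 of the 82 genes were higher in both libraries, in male cells alone 15, and with zero cells matched on sex as well as depth (320 and 435 pairs) 37, and of the 41 lower genes 9, 16 and 18 were lower in the same comparisons. With sex matched the median log2 ratio of class I genes was 0.63 and 1.18 and that of GTPases 0.98 and 1.48. These comparisons hold fewer cells, and the part of cell number in the lower counts was not tested.

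**Figure D5:**
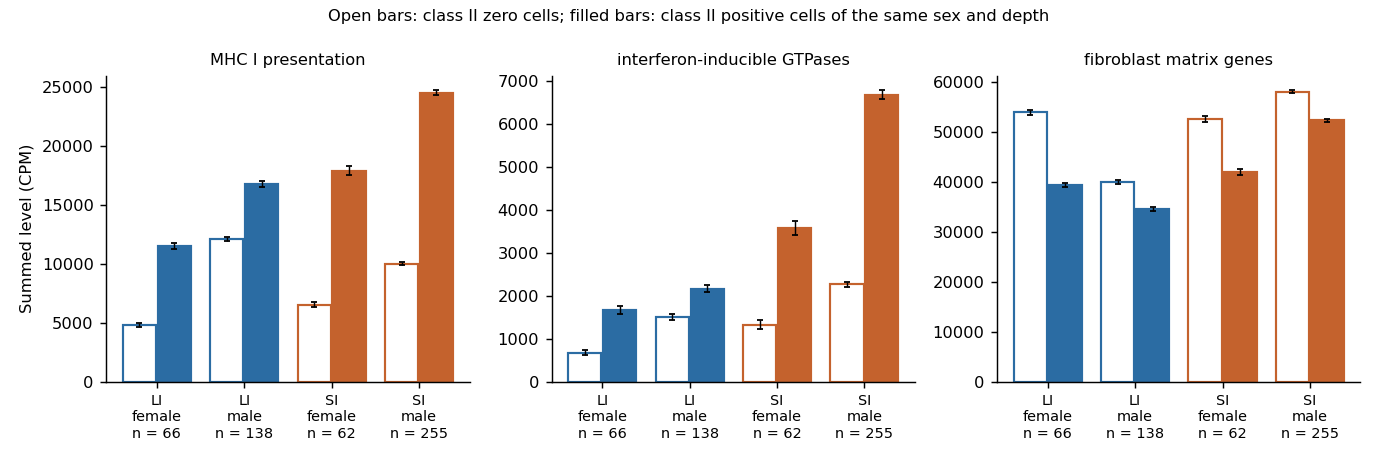
Summed level (CPM) of 3 gene lists in class II zero (open bars) and class II+ fibroblasts (filled bars) of the same sex, matched on depth, for the LI graft (blue) and the SI graft (orange); n is the number of pairs and whiskers are exact Poisson 95% intervals, which cover counting error only. In male LI cells open and filled bars are closest, at 12110 and 16774 CPM for class I genes and 1503 and 2159 CPM for GTPases.

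Class II+ FB of the SI graft had higher interferon-inducible transcripts than those of the LI graft. Of 6357 genes with at least 20 CPM in class II+ FB of either graft, 341 (5.36%) were at least 2-fold higher in LI and 390 (6.13%) in SI class II+ FB, and 108 and 86 of these also passed 2-fold between the class II zero FB of the grafts. Of 17 GTPases 16 were higher in the SI graft and none in the LI graft, with a median log2 ratio (LI over SI) of -1.72 in class II+ FB and -1.22 in class II zero FB. Class I genes had -0.89 and -0.70, 7 of 22 being higher in the SI graft. Socs1 (-1.85), Irf8 (-1.59) and Cxcl10 (-1.82) were higher in SI class II+ FB, and stood at -0.85, -0.97 and -1.33 in class II zero FB. LI class II+ FB had more Timp1 (3740 against 223 CPM, 4.06), Cxcl14 (582 against 30.4 CPM, 4.22), Ccl7 (1282 against 237 CPM, 2.43), Ccl2 (1.9996), Igfbp5 (2.13) and Thy1 (2.52). In class II zero FB the log2 ratios of these were 3.23, 3.13, 3.01, 1.60, 0.83 and 0.11 in the same order, so that the first 4 also differed by more than 2-fold between grafts there. The posterior gene Hoxd11 stood at 78.3 CPM in LI class II+ FB and had no UMI in SI class II+ FB. The pericyte gene Rgs5 (39.8 against 539 CPM) and the smooth muscle genes Myh11 (36.8 against 249 CPM) and Actg2 (137 against 894 CPM) were also higher in SI class II+ FB, where more cells held pericyte markers. Of the SI Actg2 UMIs 66.0% lay in 5 cells. Graft type, library, kit and pool of embryos cannot be told apart in this comparison.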

How the data were processed

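Mesenchymal stromal cells sorted from LI and SI grafts were sequenced as 1 library each. Per the labels, the authors aligned reads to mm10 with Cell Ranger 3.1.0 and deposited raw counts of UMIs per gene and barcode, which are whole numbers with no normalization. A UMI is counted once per molecule. The annotation release is not given in the sources used here. The authors' own cell annotation was not used.

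Barcodes needed 500 genes and no more than 10% mitochondrial UMIs, met by 9873 in the LI and 7910 in the SI graft, before the rule on Dcn, Col1a2, immune and class II UMIs was applied. This left out 739 and 579 cells with Dcn, Col1a2 and an immune UMI, of which 123 and 140 had a class II sum of at least 10. Class II zero FB were drawn in bins of 0.25 in log2 of total UMIs outside the 4 class II genes (seed 1), and 1 and 2 class II+ FB had no partner. Counts were pooled over cells and divided by those totals (5349618 and 4480589 UMIs in class II+ FB, 5328412 and 4457740 in class II zero FB) to give CPM. Log2 ratios had a pseudocount of 1 CPM, which understates changes of low genes, genes needed 20 CPM in 1 pool, and a gene was called at a log2 ratio of 1 in the same direction in both libraries. Intervals on ratios are exact binomial and on CPM exact Poisson, at 95%. The calling rule was tested on simulated counts. Scrublet (scanpy 1.11.5) marked 0 and 1 barcodes by its own threshold and was taken not to have worked, so doublets were left in and removal of the highest scores at 0.8% per 1000 barcodes was an alternative. TMM factors came from edgeR 4.0.16 under R 4.3.3. Other steps used Python 3.11.15 with numpy 2.4.6 and scipy 1.17.1. Genes of the pathway, FB subset and position lists that passed the level filter could be named, and beside them the 15 highest and 10 lowest genes outside the lists among those with at least 50 CPM in both libraries, without mitochondrial, haemoglobin and sex-linked genes. Genes under the filter, markers of other cells, Igkc, Mki67 and Top2a were named after their values were seen. The members and lists were chosen with earlier results of these data known. 20 alternatives were planned and 3 more were chosen with the data in view. Some measured genes are not reported here. List genes with 4 duplicated and 8 unmatched symbols were left out. Promoters came from RefSeq on GRCm38 and gene positions from GENCODE vM21 by Ensembl identifier.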

Additional observations from a re-analysis of the deposited data

Results flagged for a closer look

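In 7 genes, all of them in the gene lists, the log2 ratio of class II+ over class II zero FB passed 2-fold in opposite directions in the grafts. The number over all 6714 genes is not given here, and the difference between grafts was not tested. The chemokine Cxcl13 stood at -2.08 (LI) and 1.74 (SI), and 161 of its 269 SI UMIs lay in 1 cell. Cxcl12, which retains lymphocytes and progenitors, stood at -1.48 and 1.45, and within a sex at -0.94 and 0.51 in female and -0.11 and 1.39 in male cells, so that it passed 2-fold within a sex in male SI cells alone. The potassium channel gene Kcnj8, a pericyte gene, stood at 1.68 and -1.07. Thy1, the CD90 antigen of a FB subset, stood at 1.24 and -1.17, and within a sex its LI log2 ratio was 0.80 in female and 0.53 in male cells. Its SI log2 ratio stayed past 2-fold within a sex, at -1.18 in female and -1.25 in male cells. The matrix protein gene Edil3 stood at -1.29 and 1.34. The position gene Hoxc8 stood at -1.45 and 1.13. The antiviral gene Ifit2 stood at -1.15 and 1.29.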

How the results depend on the processing

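Of 6714 genes, 82 were higher and 41 lower in both libraries. The number higher was 136 in female cells, 38 in male cells, 149 without a level filter beyond 1 UMI and 49 with class II zero FB matched on depth and sex, chosen with the data in view. The number lower was 81 without depth matching, 105 with cells thinned to 2000 UMIs, 23 with a pseudocount of 5 CPM, 67 at a minimum of 10 CPM and 100 without a filter beyond 1 UMI. Higher genes were 66.7% of calls, 56.0% without depth matching (103 higher), 53.5% when thinned (121 higher) and 47.5% in male cells (38 higher). Of 16 pathway, matrix and FB subset lists, those with a median of at least 1 in both libraries numbered 2, against 4 when thinned, 0 in male cells and 0 with sex matched. Class II+ FB were 6.46% of LI FB with stricter cell filters, 6.69% and 8.56% of LI and SI FB without the limit on immune genes, 4.74% and 4.95% with no immune marker UMI, 0.957% and 1.69% in female cells, 36.5% and 18.7% in male cells and 2.06% and 3.102% when thinned. With 2 UMIs needed for a call of sex, male cells were 31.6% and 34.5% of class II+ FB and 3.47% and 18.9% of class II zero FB. Some genes changed sign. In the LI graft Anxa3 stood at 0.22 without depth matching, 0.71 when thinned and 1.01 in male cells, Sfrp4 at 0.17 when thinned, and Ccl5 at -0.56 with no immune marker UMI, -1.62 with sex matched and -0.12 without cells holding markers of other cell types. Spp1 in the SI graft stood at -1.77 with stricter cell filters, -1.88 with 3 UMIs of Dcn and Col1a2, -1.95 without cells holding markers of other cell types and -0.075 without the 5 cells of highest count. In female cells Cxcl5 (-0.39), Penk (-0.47) and the chemokine median over genes passing the filter there (-0.43) turned in the SI graft and Ednrb (1.03) in the LI graft. In male LI cells AW112010 (-0.42), Adamts5 (1.76), Serpina3g (-0.24), Tgtp2 (-0.36) and Ubd (-1.21, and -0.10 with sex matched) turned. The cause was not tested for any of these. No paired analysis was possible because the result comes from no test: each ratio was already taken within a library, and cells are not replicates. A gene with no UMI in a pool could stand at up to 0.56 CPM (LI) or 0.67 CPM (SI) by counting error.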
